A study of Canis lupus familiaris with 4 samples.

Results

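Genes of the interferon response and of antigen presentation were examined in 4 canine glioblastoma lines, each hybridized to 1 GeneChip Canine Genome 2.0 array. The genes were chosen by name from a list of 45 symbols, and 39 of them had a probe set with a single gene symbol, out of 15115 genes with such a probe set. The names DDX58 and RIGI on the list belong to the same gene, and these names, OASL, IFIT1, IFIT3 and BST2 matched no probe set and were not analysed here. Of the 39 genes, 22 had more than 1 probe set (76 in all), and each gene was represented by the one that was brightest on average over the 4 arrays. J3T-2A cells are J3T-2 cells that overexpress annexin A2 (ANXA2), and the authors describe J3T-2 cells as low in ANXA2. J3T-1shA cells are J3T-1 cells in which ANXA2 was silenced, and the authors describe J3T-1 cells as high in ANXA2. The labels themselves give only the names of the lines. J3T-1 and J3T-2 come from the same parental dog glioblastoma cells. All 4 lines were grown in serum-containing medium, and the labels name no interferon or virus among the treatments. How the modified lines were made, and whether their parents carried an empty vector, is not given in the sources used here, so the introduced construct and the ANXA2 state cannot be told apart within a pair.

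Interferons are secreted proteins by which cells signal the presence of viral or misplaced nucleic acid. Sensors in the cytoplasm recognize double-stranded RNA, interferon regulatory factors carry the signal to the nucleus, and interferons then act through JAK kinases and STAT proteins on genes whose products block viral replication. The same signals raise the class I presentation machinery, which displays peptides from inside the cell to T cells. In glioma, tumour cells with an active interferon pathway are known, and class I molecules mark such cells for immune recognition.

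The values are MAS 5.0 signals, intensities on a linear scale, which the authors scaled to one trimmed mean per array. The trimmed means of the deposited columns were 495.8 to 496.0 and the median signals 101.8 to 106.5. Signals of 2 arrays were divided, modified line by its parent (J3T-2A/J3T-2, J3T-1shA/J3T-1) or parent by parent (J3T-1/J3T-2), and a ratio was used if either signal reached 250. Genes past a ratio of 2 were counted as different. There was 1 array per line and hence no replicate, so no ratio could be tested and precision is limited by the number of arrays. The spread between probe sets gave a guide to the measurement error. Where the 2 brightest probe sets of a gene were both measured, their log2 ratios differed with an SD of 0.29 for J3T-2A/J3T-2 (3716 genes), 0.37 for J3T-1shA/J3T-1 (3760 genes) and 0.37 for J3T-1/J3T-2 (3759 genes). This spread does not cover the variation between cultures. ANXA2 itself had signals of 28774.6 (labelled J3T-2A) and 30102.5 (labelled J3T-2), and of 30092.9 (labelled J3T-1shA) and 28656 (labelled J3T-1). A second bright ANXA2 probe set had 35650.8 (J3T-2A) and 30310.9 (J3T-2), and 25725.4 (J3T-1shA) and 24127.5 (J3T-1). It was highest on the array labelled J3T-2A, but its log2 ratio of 0.23 for J3T-2A/J3T-2 was smaller than the SD between probe sets. It was not lower on the array labelled J3T-1shA than on that labelled J3T-1. These values do not tell high from low ANXA2 lines, so every direction given here holds between arrays as labelled. Among markers of the labelled cell type, SOX2, VIM and SLC1A3 were over 250 on every array, whereas GFAP and S100B were at 8.2 to 33.6. NES passed 250 on the array labelled J3T-1shA alone (345.9). SLC1A3 was over 2-fold higher in both modified lines, at 3998.8 (J3T-2A) and 1996.2 (J3T-2), and at 5505.5 (J3T-1shA) and 2422.1 (J3T-1). In RNA from whole cultures, fewer cells with a transcript and less transcript per cell cannot be told apart.

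The share of these genes with a signal of 250 or more on all 4 arrays was close to that of all genes. Of the 39 genes, 16 reached a signal of 250 on all 4 arrays, 8 reached it on 1 to 3 arrays and 15 on none. Among all 15115 genes, 39% reached it on all 4 arrays, 8.87% on 1 to 3 arrays and 52.1% on none. By role, it was reached on all 4 arrays by 5 of 6 transcription factors (IRF1, IRF2, IRF3, IRF9 and STAT2) and by 5 of 8 genes of antigen presentation (B2M, TAP1, TAP2, TAPBP and DLA88). It was reached there by only 2 of 6 sensors (OAS1 and OAS2), 2 of 12 effectors (IFI35 and IFIT5) and 2 of 7 genes of the ISG15 and ADP-ribose system (HERC6 and DTX3L). The genes that reached it on some arrays were IFIH1, EIF2AK2, IFI44, IFI44L, GBP1, ISG15, USP18 and DLA-64. The 15 genes under it throughout had signals of 2.5 to 233.6. They were the sensors OAS3 and DHX58, the transcription factor IRF7, the effectors MX1, MX2, IFIT2, ISG20, RSAD2, TRIM21 and ADAR, the genes HERC5, PARP9 and PARP14, and the regulators of presentation NLRC5 and CIITA. MX1 and RSAD2, whose products restrict many viruses and which are widely used as signs of an active interferon response, had signals of 12.5 to 74.7 and 42.3 to 87.7. A signal under the limit does not show that a transcript was absent, since no detection calls were among the values used here. Nor can signals be set against each other between genes, because probe sets differ in how strongly they hybridize.

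**Figure D1:**
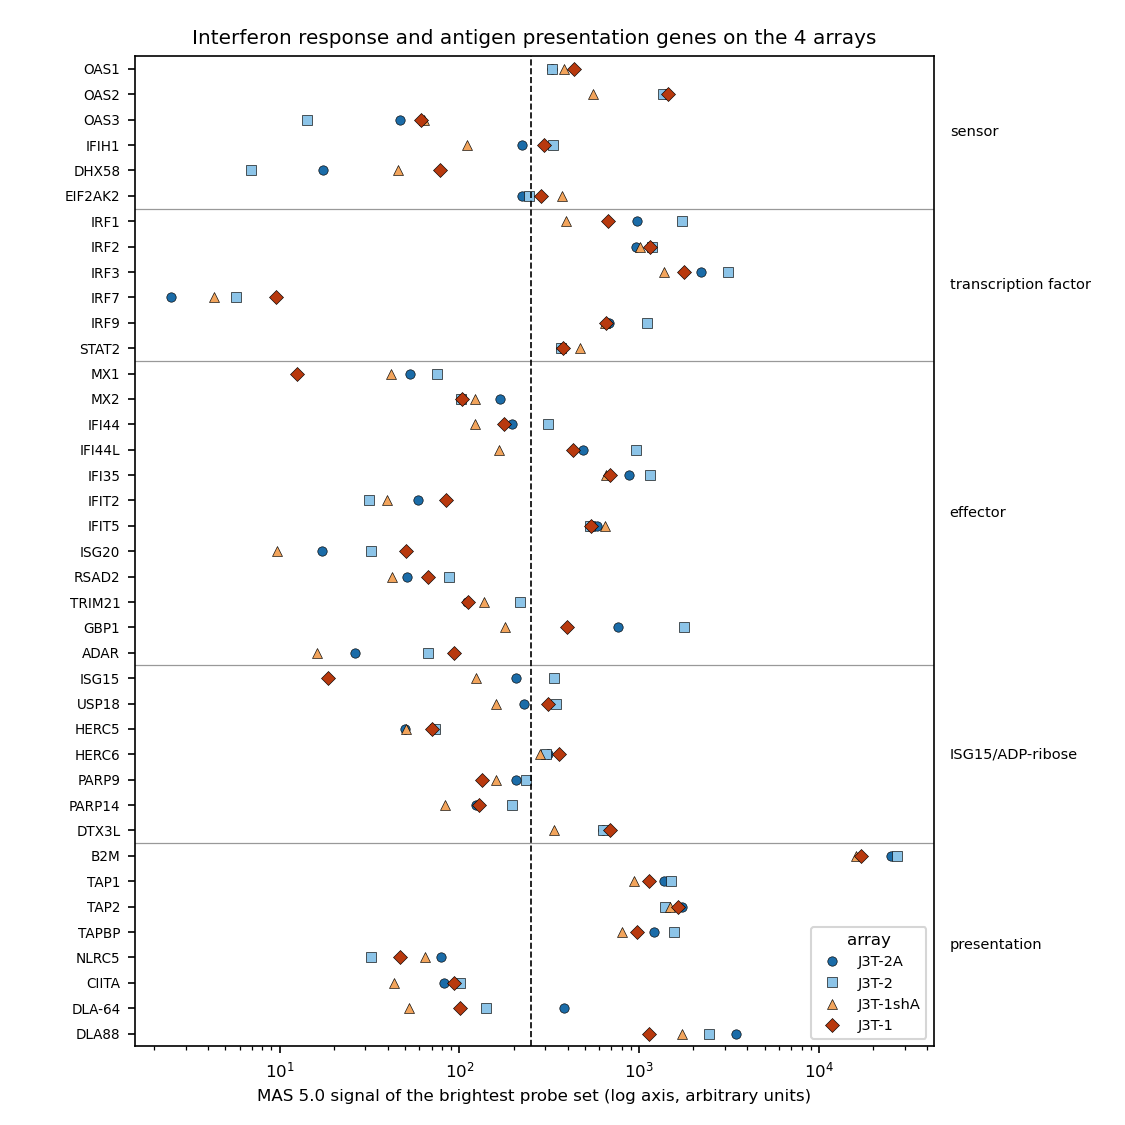
Signal of the brightest probe set of each of the 39 genes (log axis) on the arrays labelled J3T-2A, J3T-2, J3T-1shA and J3T-1, 1 array per line, grouped by role. The dashed line is the limit of 250, which 5 of 6 transcription factors and 5 of 8 presentation genes exceeded on all 4 arrays.

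In both modified lines, most measured genes of the group had lower signals than in the line they came from, though part of this count was set by the limit. For J3T-2A/J3T-2, 16 of 23 measured genes had a ratio below 1, compared with 50.6% of all measured genes, and the median log2 ratio was -0.29, against -0.0034 for all genes. IFIH1, IFI44, ISG15 and USP18 passed the limit through J3T-2 alone and DLA-64 through J3T-2A alone, which fixed their direction. Of the 18 genes at 250 or more on both arrays, 12 had a ratio below 1, compared with 49.7% of all such genes, and their median was nearer to 0, at -0.13. Few of these differences were large. GBP1 alone was over 2-fold lower, where 2.1% of all measured genes were, and DLA-64 alone was over 2-fold higher, where 1.69% were. The ratios of 9 of the 23 genes (39.1%) lay within the SD between probe sets, against 65.6% of all genes. For J3T-1shA/J3T-1, 17 of 21 measured genes had a ratio below 1, compared with 52.9% of all genes, and the median was -0.26, against -0.033. IFIH1, IFI44L, GBP1 and USP18 passed the limit through J3T-1 alone and so had to be lower. Of the 17 genes at the limit on both arrays, 13 had a ratio below 1, compared with 53.6% of all such genes, with a median of -0.18. OAS2, IFIH1, IFI44L, GBP1 and DTX3L were over 2-fold lower, which 3.8% of all measured genes were. With a pseudocount of 80, IFIH1, GBP1 and DTX3L came within 2-fold (-0.98, -0.88 and -0.88). None of the 21 was over 2-fold higher, which 4.26% were. The ratios of 12 of the 21 lay within the SD between probe sets (59.2% of all genes). Between the parents (J3T-1/J3T-2), 15 of 23 genes were lower, compared with 47.5% of all genes, with a median of -0.40, against 0.027. IFI44 and ISG15 passed through J3T-2 alone and EIF2AK2 through J3T-1 alone, and of the other 20 genes 13 had a ratio below 1, compared with 46.5% of all such genes, with a median of -0.28. IRF1, IFI44L, GBP1, ISG15 and DLA88 were over 2-fold lower (4.05% of all genes) and none was over 2-fold higher (2.94%). This comparison shares an array with each of the other two, so the 3 are not independent.

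**Figure D2:**
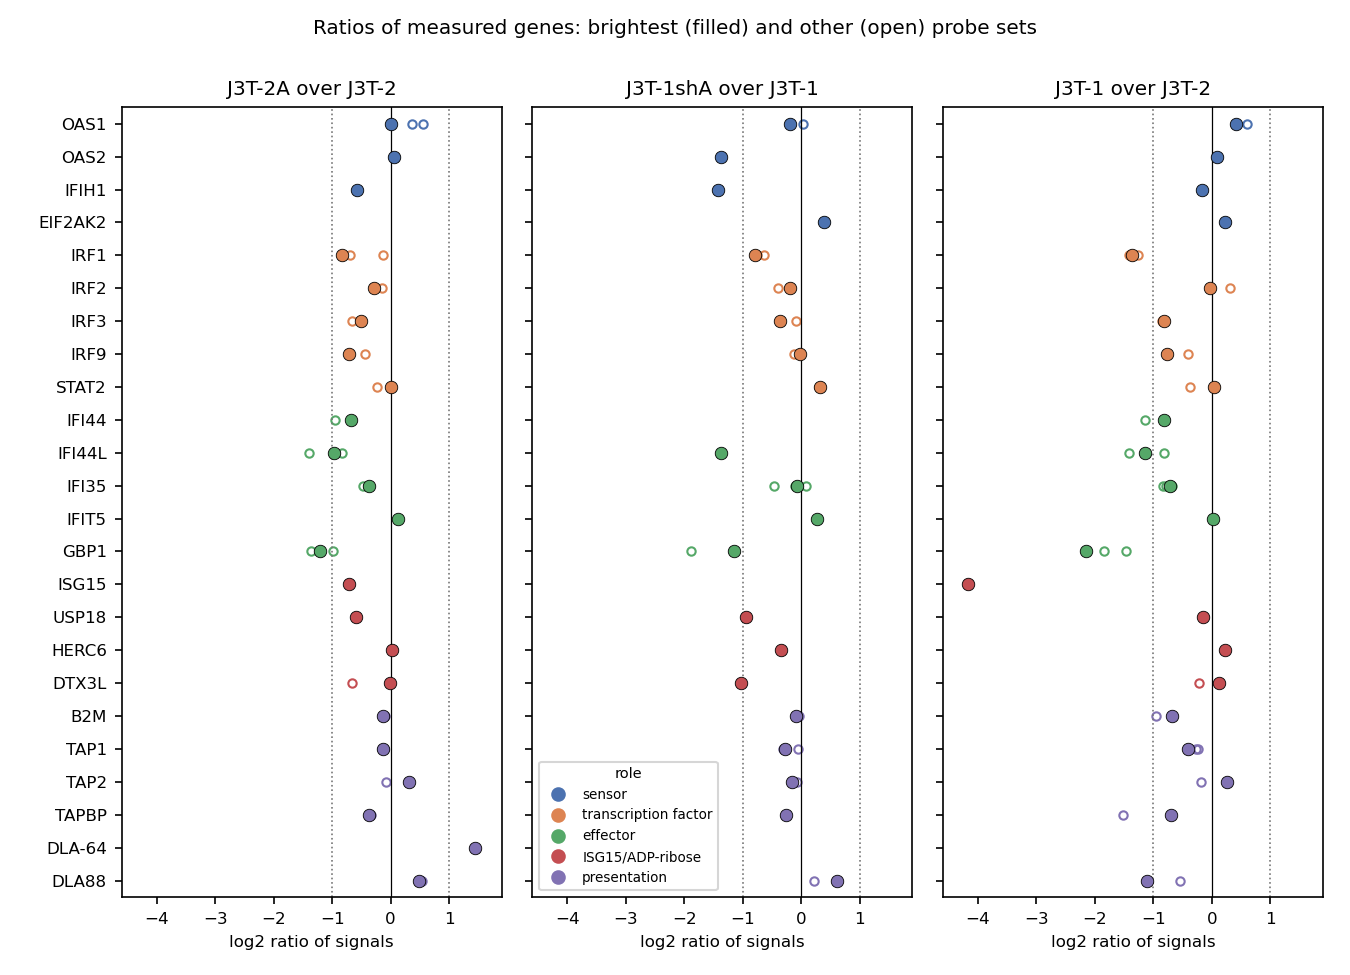
Log2 ratio of signals (x axis) of the 24 genes that reached 250 on any array, for J3T-2A/J3T-2, J3T-1shA/J3T-1 and J3T-1/J3T-2, drawn where the higher signal was at least 250. Filled points are the brightest probe set, open points other measured probe sets, and dotted lines mark 2-fold. The filled point of GBP1 lies beyond the lower line in all 3 panels, and ISG15 at -4.18 in the third.

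The sensors differed mainly on the array labelled J3T-1shA. OAS2, an enzyme that makes the second messenger 2-5A when it binds double-stranded RNA, had signals of 1415.9 (J3T-2A) and 1355 (J3T-2), and of 554.8 (J3T-1shA) and 1439.3 (J3T-1). Its signal was thus much alike on 3 arrays and 2.59-fold lower on the one labelled J3T-1shA. IFIH1, which encodes the RNA helicase MDA5, had signals of 223 (J3T-2A) and 330.6 (J3T-2), and of 110.8 (J3T-1shA) and 295.7 (J3T-1). It was also lowest on the array labelled J3T-1shA, by 2.67-fold against J3T-1. Each of these genes had 1 probe set, so no second one could check them. OAS1, a related enzyme, did not share this difference. It had signals of 326 (J3T-2A) and 326.1 (J3T-2), and of 382.7 (J3T-1shA) and 435 (J3T-1), a log2 ratio of -0.18 in the second pair, which is smaller than the SD between probe sets. Its 2 other measured probe sets gave 0.56 and 0.37 for J3T-2A/J3T-2. EIF2AK2, which encodes the kinase PKR that halts translation when it binds double-stranded RNA, had signals of 222.5 (J3T-2A) and 243.8 (J3T-2), and of 370.6 (J3T-1shA) and 284.3 (J3T-1). It was highest on the array labelled J3T-1shA, with log2 ratios of 0.38 there over J3T-1 and 0.22 for J3T-1/J3T-2. The median log2 ratio of the sensors was -0.00044 over 3 genes for J3T-2A/J3T-2, -0.78 over 4 genes for J3T-1shA/J3T-1 and 0.15 over 4 genes for J3T-1/J3T-2. The second of these is the midpoint of genes that lay far apart, at -1.42 and -1.38 on one side and -0.18 and 0.38 on the other. IFIH1 passed the limit through J3T-2 alone in the first pair and through J3T-1 alone in the second, which fixed its direction. For J3T-1/J3T-2, EIF2AK2 passed through J3T-1 alone.

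Of the 6 transcription factors 5 reached the limit in every line, and IRF7 was at 2.5 to 9.6. The J3T-2 array carried the highest signal of IRF1, IRF2, IRF3 and IRF9, as it did for 26.2% of all genes at the limit on any array, although a second probe set of IRF2 was highest in J3T-1 (335.3). IRF1, which drives both interferon-induced genes and class I presentation, had signals of 976.9 (J3T-2A) and 1730.4 (J3T-2), and of 389.7 (J3T-1shA) and 672.3 (J3T-1). The log2 ratios were -0.82 for J3T-2A/J3T-2, -0.79 for J3T-1shA/J3T-1 and -1.36 for J3T-1/J3T-2. Its other 2 probe sets gave -0.13 and -0.69 in the first comparison, -0.75 and -0.64 in the second, and -1.26 and -1.41 in the third, so they lay furthest apart in the first. IRF3, the factor that the RNA sensors activate, had signals of 2197.3 (J3T-2A) and 3117.1 (J3T-2), and of 1376.2 (J3T-1shA) and 1763.9 (J3T-1). All of its ratios were within 2-fold, the largest being -0.82 for J3T-1/J3T-2. IRF9 and STAT2 act together in the response to type I interferon. IRF9 was highest on the array labelled J3T-2 (1111.8) and level on the others, at 678.7 (J3T-2A), 644.3 (J3T-1shA) and 651.4 (J3T-1). By its brightest probe set STAT2 did not follow it. The signals were 367 (J3T-2A) and 366.9 (J3T-2), and 468.8 (J3T-1shA) and 374.6 (J3T-1). The log2 ratio of 0.32 for J3T-1shA/J3T-1 was smaller than the SD between probe sets. The next brightest STAT2 probe set was, like IRF9, highest on the array labelled J3T-2 (271.4). It gave -0.38 for J3T-1/J3T-2, just past that SD. A dimmer STAT2 probe set that reached the limit was highest on the array labelled J3T-1shA (252.2). The STAT2 probe sets thus ranked the arrays differently. IRF2, which can oppose IRF1, had signals of 960.6 (J3T-2A) and 1172.8 (J3T-2), and of 1004.9 (J3T-1shA) and 1147.5 (J3T-1). None of the log2 ratios of IRF2 by its brightest probe set exceeded the SD between probe sets. Its second probe set gave -0.39 for J3T-1shA/J3T-1, just past that SD, and 0.32 for J3T-1/J3T-2, where the brightest gave -0.03. The medians over these 5 genes were -0.50 for J3T-2A/J3T-2, -0.19 for J3T-1shA/J3T-1 and -0.77 for J3T-1/J3T-2.

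Among the effectors, the guanylate-binding protein GBP1 was over 2-fold different in all 3 comparisons. This GTPase, which attacks the membranes around intracellular pathogens, had signals of 764.4 (J3T-2A) and 1774 (J3T-2), and of 179.3 (J3T-1shA) and 398.5 (J3T-1). It was 2.32-fold lower on the J3T-2A-labelled array than in J3T-2, 2.22-fold lower on the J3T-1shA-labelled array than in J3T-1, and 4.45-fold lower on the J3T-1-labelled array than in J3T-2. Its other probe sets ranked the 4 arrays in the same way, with log2 ratios of -0.99 and -1.36 for J3T-2A/J3T-2. For J3T-1shA/J3T-1 the second probe set gave -1.88, and the third was just under the limit. The guanylate-binding proteins are close relatives, and whether these probe sets also read other members of the family was not tested.

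IFI44L had a similar order of signals, with 488.7 (J3T-2A) and 955.1 (J3T-2), and with 166.7 (J3T-1shA) and 430.2 (J3T-1). IFI44L is an interferon-induced protein known as a marker of the type I response in human blood. Its log2 ratio was -0.97 for J3T-2A/J3T-2, just within 2-fold, and -0.84 and -1.40 by its other probe sets. It was -1.37 for J3T-1shA/J3T-1 and -1.15 for J3T-1/J3T-2. In the latter comparison its other probe sets gave -1.41 and -0.81, and the -0.81 is within 2-fold. The adjoining gene IFI44 reached the limit on the array labelled J3T-2 alone, with 195.1 (J3T-2A) and 312.2 (J3T-2), and with 121.5 (J3T-1shA) and 177.7 (J3T-1). IFI35, whose product binds the related protein NMI, had 880.1 (J3T-2A) and 1141.3 (J3T-2), and 655.1 (J3T-1shA) and 692 (J3T-1). All 4 of its probe sets were measured, and they gave -0.37 to -0.48 for J3T-2A/J3T-2, -0.67 to -0.83 for J3T-1/J3T-2, and values on both sides of 0 (-0.46 to 0.07) for J3T-1shA/J3T-1. IFIT5, a protein that binds viral RNA ends, was close to level, at 585.6 (J3T-2A) and 533.6 (J3T-2), and at 648.1 (J3T-1shA) and 539.7 (J3T-1). The medians of the effectors were -0.68 over 5 genes for J3T-2A/J3T-2, -0.62 over 4 genes for J3T-1shA/J3T-1 and -0.81 over 5 genes for J3T-1/J3T-2.

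The ISG15 and ADP-ribose system differed from gene to gene. ISG15, the ubiquitin-like protein that interferon induces, had signals of 206.3 (J3T-2A) and 336.1 (J3T-2), and of 124.2 (J3T-1shA) and 18.6 (J3T-1). It passed the limit on the array labelled J3T-2 alone, and the value of 18.6 lay under the median of all probe sets on the array labelled J3T-1 (103.4). The 18.1-fold lower signal on the J3T-1-labelled array than in J3T-2 therefore rests on a dim value, and the log2 ratio of -4.18 was -2.08 with a pseudocount of 80. Its second probe set was dim on all arrays (7.5 to 60.7). USP18, the protease that removes ISG15 and dampens interferon signalling, had 228.4 (J3T-2A) and 344 (J3T-2), and 160.4 (J3T-1shA) and 309.1 (J3T-1). Its log2 ratios were -0.59 for J3T-2A/J3T-2 and -0.95 for J3T-1shA/J3T-1, both within 2-fold, and -0.15 between the parents. DTX3L, a ubiquitin ligase that works with PARP9, had 627.2 (J3T-2A) and 631.8 (J3T-2), and 334.4 (J3T-1shA) and 683.9 (J3T-1). It was 2.05-fold lower on the J3T-1shA-labelled array than in J3T-1. A second, dimmer DTX3L probe set gave -0.66 for J3T-2A/J3T-2 (158.8 and 251.5), where the brightest gave -0.01. It gave -0.51 for J3T-1shA/J3T-1, with both signals under the limit (152.3 and 216.3), and the median over both was -0.77, within 2-fold. HERC6 was near the limit and nearly level, at 281.7 to 357.2. The medians were -0.30 over 4 genes for J3T-2A/J3T-2, -0.95 over 3 genes for J3T-1shA/J3T-1 and -0.020 over 4 genes for J3T-1/J3T-2. The limit fixed part of these values. For J3T-2A/J3T-2, ISG15 and USP18 passed it through J3T-2 alone and so had to be lower. The -0.95 is the ratio of USP18, which passed through J3T-1 alone. For J3T-1/J3T-2, ISG15 passed through J3T-2 alone.

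**Figure D3:**
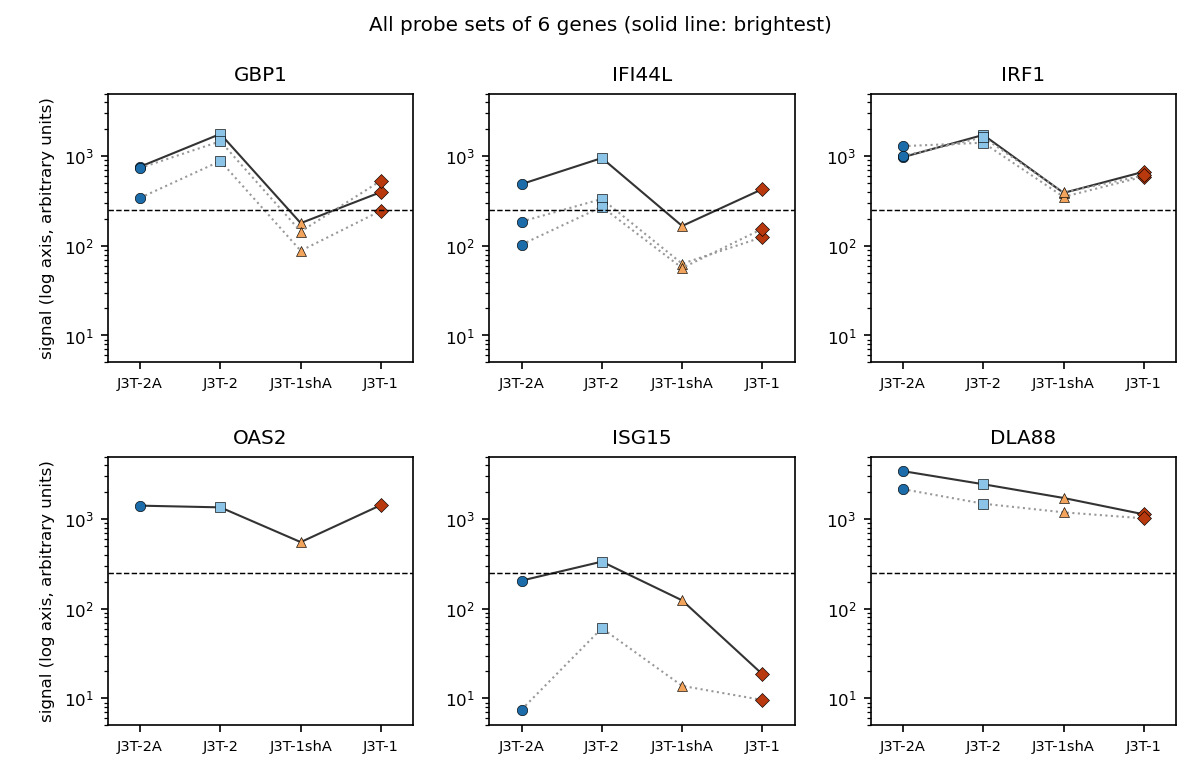
Signals (log axis) of every probe set of GBP1, IFI44L, IRF1, OAS2, ISG15 and DLA88 on the 4 arrays, solid for the brightest probe set of each gene and dotted for others, with the limit of 250 dashed. GBP1, IFI44L and IRF1 peak on the array labelled J3T-2, OAS2 is at 554.8 on the array labelled J3T-1shA and at 1355 to 1439.3 elsewhere, and DLA88 is highest on the array labelled J3T-2A.

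Of the 8 genes of antigen presentation 5 reached the limit in every line, and none of these 5 was over 2-fold different between a modified line and its parent. B2M, the invariant chain of class I molecules, had signals of 25095.2 (J3T-2A) and 27301 (J3T-2), and of 16092 (J3T-1shA) and 17039 (J3T-1). Within each pair it differed by less than the SD between probe sets, but its log2 ratio for J3T-1/J3T-2 was -0.68 (-0.96 by its second probe set). TAP1 and TAP2 form the pump that carries peptides into the endoplasmic reticulum. TAP1 had 1375.6 (J3T-2A) and 1504.4 (J3T-2), and 940.3 (J3T-1shA) and 1136.8 (J3T-1), and TAP2 had 1719.6 (J3T-2A) and 1388.3 (J3T-2), and 1488.6 (J3T-1shA) and 1653.2 (J3T-1). The ratios of TAP1 were within the SD between probe sets in both pairs, and TAP2 exceeded it only for J3T-2A/J3T-2 (0.31), where its second probe set gave -0.08. TAPBP, which encodes tapasin, the bridge between that pump and class I, had 1210.2 (J3T-2A) and 1566.9 (J3T-2), and 804.7 (J3T-1shA) and 966.5 (J3T-1). Between the parents its log2 ratio was -0.70, and -1.52 by its dimmer second probe set.

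Unlike most of the group, the class I heavy chain gene DLA88 had higher signals in both modified lines. DLA88, the main polymorphic class I gene of the dog, had signals of 3438.1 (J3T-2A) and 2455.1 (J3T-2), and of 1725.2 (J3T-1shA) and 1132.6 (J3T-1). It was higher in both modified lines than in their parents, with log2 ratios of 0.49 and 0.61 (0.54 and 0.22 by its second probe set), all within 2-fold. The value of 0.22, for J3T-1shA/J3T-1, was smaller than the SD between probe sets. By their brightest probe sets IFIT5 and STAT2 were also higher in both, by less than that SD. It was 2.17-fold lower in J3T-1 than in J3T-2 by its brightest probe set, and within 2-fold by its second (-0.54). DLA-64, a less polymorphic class I gene, passed 250 in J3T-2A alone, with 380.6 (J3T-2A) and 139.9 (J3T-2), and with 52.4 (J3T-1shA) and 101.2 (J3T-1). Its 2.72-fold higher signal on the J3T-2A-labelled array than in J3T-2 rests on 1 probe set. Class I genes of the dog are near-identical in part and differ between animals, so cross-hybridization among them was possible and was not tested. The medians of the presentation genes were 0.094 over 6 genes for J3T-2A/J3T-2, -0.15 over 5 genes for J3T-1shA/J3T-1 and -0.68 over 5 genes for J3T-1/J3T-2. The first includes DLA-64, whose direction the limit fixed. Medians by role were not taken over genes at the limit on both arrays. Whether the medians of the roles differed from each other was not tested, as genes of 1 array pair are not replicates.

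Other genes of the pathway were examined in 5 lists of names. Of 14 ligands, receptors and receptor kinases with a probe set, 4 were over the limit on all 4 arrays and 8 on none. Among all 15115 genes, 39% reached it on all 4 arrays and 52.1% on none. Of the interferon genes IFNB1, IFNG, IFNK and IFNL1, none exceeded 38.2 on any array. Of the interferon gamma receptor, the chain IFNGR2 had signals of 2755 to 3394.6. The chain IFNGR1 had 436.8 (J3T-2A) and 389.9 (J3T-2), and 477 (J3T-1shA) and 229.1 (J3T-1). IFNGR1 was thus 2.08-fold higher on the J3T-1shA-labelled array than in J3T-1, where 4.26% of all measured genes were over 2-fold higher. In this pair it passed the limit through J3T-1shA alone and so had to be higher. IFNAR1, a chain of the type I receptor, lay around the limit (174 to 288.5). Of the receptor kinases, JAK1 had 4229.5 to 5171.1 and TYK2 stayed under the limit (137 to 191.4). JAK2 was 2.03-fold lower on the J3T-2A-labelled array than in J3T-2 and 2.04-fold lower on the J3T-1-labelled array than in J3T-2. IFNAR2 had no probe set with a single symbol. Among the adaptors and kinases of nucleic acid sensing, TBK1, IKBKE, TLR3 and TRAF3 were measured and within 2-fold in all 3 comparisons, and MAVS and STING1 were under the limit.

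Genes of peptide supply and loading for class I were mostly over the limit. Of 14 such genes with a probe set, 12 were over the limit on all 4 arrays, compared with 39% of all genes. None of the 14 was over 2-fold different in any of the 3 comparisons. For J3T-2A/J3T-2, 10 of the 12 were lower (median -0.21), compared with 50.6% of all measured genes, and the ratios of 7 of the 12 lay within the SD between probe sets. The immunoproteasome subunit PSMB10 had 1130.7 (J3T-2A) and 1850.8 (J3T-2), and 599.4 (J3T-1shA) and 1119.6 (J3T-1). The proteasome activator subunits PSME1 and PSME2 had log2 ratios of -0.65 and -0.67 for J3T-2A/J3T-2. The median of the 12 was -0.17 for J3T-1shA/J3T-1 and -0.54 for J3T-1/J3T-2. Of 11 class II genes with a probe set, 9 were under the limit on every array (2.7 to 138.6), compared with 52.1% of all genes. These 9 were CD74 and the class II chain genes. Only IFI30 and CTSS, which act in lysosomes, were over the limit. CTSS was 2.00-fold lower on the J3T-1shA-labelled array than in J3T-1. Of 30 other interferon-induced genes with a probe set, 10 were over the limit on all 4 arrays and 14 on none. The shares of all genes were 39% and 52.1%. GBP6, a relative of GBP1, had 240.7 (J3T-2A) and 592.2 (J3T-2), and 36.5 (J3T-1shA) and 83.6 (J3T-1). CXCL10, a chemokine that draws T cells, had 268.2 (J3T-2A) and 809.7 (J3T-2), and 28.7 (J3T-1shA) and 14.1 (J3T-1). Both were over 2-fold lower on the J3T-2A-labelled array than in J3T-2, where 2.1% of all measured genes were. Both, and GBP5 (2.30-fold), were over 2-fold lower on the J3T-1-labelled array than in J3T-2, where 4.05% were. GBP6 passed the limit through J3T-2 alone, as did CXCL10 for J3T-1/J3T-2, which fixed these directions. The CXCL10 value of 14.1 lay under the median of all probe sets on that array (103.4). SP140, a nuclear body protein, was 2.04-fold lower on the J3T-1shA-labelled array than in J3T-1. The list had medians of -0.14 over 16 genes for J3T-2A/J3T-2, -0.086 over 12 genes for J3T-1shA/J3T-1 and -0.40 over 15 genes for J3T-1/J3T-2.

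Seen across the 4 arrays, the array labelled J3T-2 carried the highest signal most often and that labelled J3T-1shA the lowest. This pattern was noticed after the values had been seen. Of the 24 genes that reached the limit on any array, 14 were highest on the array labelled J3T-2, compared with 26.2% of all 7241 such genes, and 16 were lowest on the array labelled J3T-1shA, compared with 28.1%. IFI44 and ISG15 entered the 24 only through their signal on the array labelled J3T-2. Of the 16 genes at the limit on all 4 arrays, 8 were highest on the array labelled J3T-2 (24.8% of all such genes) and 10 lowest on that labelled J3T-1shA (27.8%). In 10 of the 24 the signal increased in the order J3T-1shA, J3T-1, J3T-2A and J3T-2, an order found in 5.9% of all genes, and in 7 of the 16, against 5.37%. The 10 were B2M, GBP1, IFI35, IFI44, IFI44L, IRF1, IRF3, IRF9, TAP1 and TAPBP. Every probe set with a signal of 250 or more on any array had this order for B2M, GBP1, IFI44, IRF1, IRF3 and TAP1, whereas 3 of 4 had it for IFI35, 2 of 3 for IFI44L and 1 of 2 for both IRF9 and TAPBP. None of the 4 measured sensors followed it. A step of any size counted towards the order. For J3T-1shA/J3T-1 the steps of B2M (-0.082), IFI35 (-0.079), IRF3 (-0.36), IRF9 (-0.016), TAP1 (-0.27) and TAPBP (-0.26) lay within the SD between probe sets. So did those of B2M (-0.12) and TAP1 (-0.13) for J3T-2A/J3T-2. The steps of GBP1, IFI44L and IRF1 exceeded it in both pairs. The middle step, from J3T-1 to J3T-2A, was not among the comparisons, so no SD between probe sets was taken for it. Signals on the arrays labelled J3T-1 and J3T-2A were 398.5 and 764.4 for GBP1, 430.2 and 488.7 for IFI44L, and 672.3 and 976.9 for IRF1. IFI44 was under the limit on the arrays labelled J3T-1shA and J3T-1.

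Markers of immune and endothelial cells were mostly dim. Of 9 macrophage and microglial markers only C1QA passed 250 on any array, and the summed signal of the 9 was 641.8 (J3T-2A) and 676.1 (J3T-2), and 785.7 (J3T-1shA) and 1015.8 (J3T-1). PTPRC, which marks all leukocytes, was at 11.5 to 35.1. Of 5 T and B cell markers only CD4 passed the limit, with sums of 520.9 (J3T-2A) and 681.7 (J3T-2), and of 622.6 (J3T-1shA) and 565.7 (J3T-1). The endothelial marker PECAM1 was also highest on the array labelled J3T-2 and lowest on that labelled J3T-1shA, at 161 (J3T-2A) and 773.2 (J3T-2), and at 1 (J3T-1shA) and 37 (J3T-1), while CDH5, KDR, TEK and VWF were at 4.4 to 91.6. The sum of the 5 endothelial markers was 303.2 (J3T-2A) and 1007.2 (J3T-2), and 273.9 (J3T-1shA) and 206 (J3T-1), and its part in the interferon pattern was not tested.

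**Figure D4:**
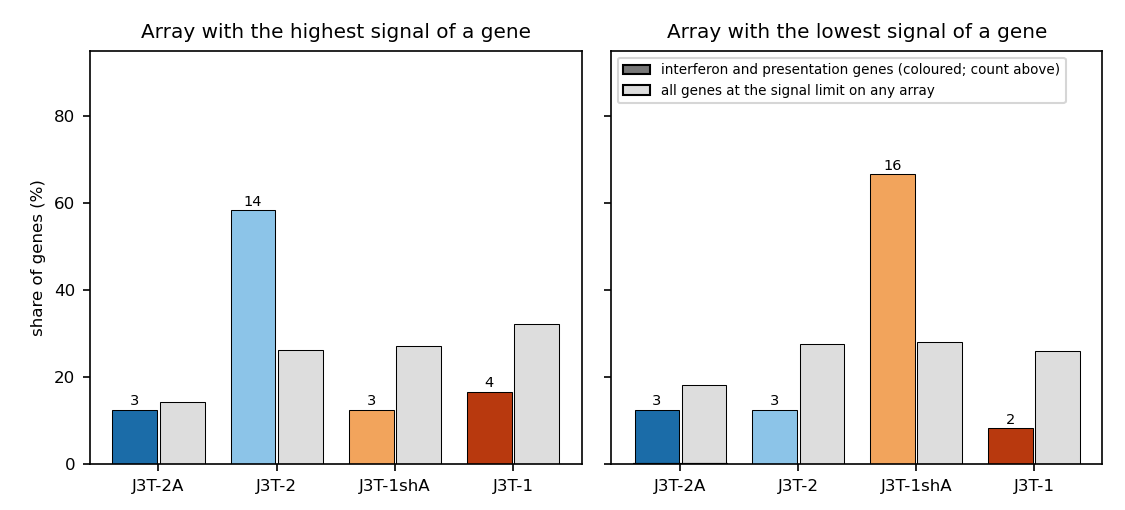
Share of genes (%) whose highest (left) or lowest (right) signal lay on each array, for the 24 interferon and presentation genes at 250 or more on any array (coloured bars, with counts) and for all 7241 such genes (grey bars). The array labelled J3T-2 was highest for 14 genes and that labelled J3T-1shA lowest for 16.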

How the data were processed

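Signal intensities were computed by the authors with MAS 5.0 from 1 GeneChip Canine Genome 2.0 array per line, with default settings and global scaling. The deposited table holds 42924 linear intensities per array, with no detection calls. The deposited columns have trimmed means of 495.8 to 496.0 (2% left out at each end), not the target that the methods state, and the limit of 250 was set on the deposited scale. Differences in scaling or cross-hybridization would shift ratios. No genome build is given, so no positions are printed, and no sequence is printed. Symbols came from the platform annotation, in which 29254 probe sets had 1 symbol, 439 had several and 13231 were not listed. For 27680 probe sets the Entrez identifier was matched to RefSeq assembly UU_Cfam_GSD 1.0, which changed 0 symbols.

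Ratios of 2 arrays were taken in Python 3.11.15 with pandas 2.3.3, with no pseudocount. The methods' P value needs probe-level data and was not computed. Members, roles and lists were chosen with earlier results of these data known. Named genes were members at 250 or more on any array, with all 4 signals for those over 2-fold in a comparison and the 3 brightest of each role, the interferon receptor chains and kinases where measured, and listed pathway genes that were over 2-fold. Signals of other genes were added after their values were seen. Alternatives were a limit of 500, no limit, a pseudocount of 80, median centring, quantile normalization, the median of probe sets and the second brightest probe set, and, added later, the limit on both or all 4 arrays. The scripts were tested on simulated data.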

Additional observations from a re-analysis of the deposited data

Results flagged for a closer look

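GBP1 was the only gene of the group that was over 2-fold different in both modified lines, and it ran in opposite directions with regard to the described ANXA2 state. It was lower with ANXA2 overexpression (log2 ratio -1.21 for J3T-2A/J3T-2) and lower with ANXA2 silencing (-1.15 for J3T-1shA/J3T-1). For J3T-1shA/J3T-1 it passed the limit through J3T-1 alone and so had to be lower. GBP1 was within 2-fold with a pseudocount of 80 for J3T-1shA/J3T-1 (-0.88) and by its second probe set for J3T-2A/J3T-2 (-0.99). With 1 array per line this difference was not tested.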

How the results depend on the processing

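With 1 array per line, no sample could be left out. The labels carry no replicate numbers, so no replicate block was fitted, and a fit of the ANXA2-high against the ANXA2-low lines with the parent as a block was not run. Median centring and quantile normalization kept the counts within 1.5 times and the medians within the SD between probe sets. The medians near 0 changed side, that of sensors in J3T-2A/J3T-2 to 0.062 and 0.034 and that of the ISG15 system in J3T-1/J3T-2 to 0.023 and 0.010. The largest median log2 ratio of all genes under them was 0.073, for J3T-1/J3T-2 after median centring (0.027 as deposited). With a limit of 500, genes over 2-fold higher in J3T-2A/J3T-2 numbered 0 instead of 1, those over 2-fold lower in J3T-1shA/J3T-1 numbered 2 instead of 5, and in that same pair the medians were -1.38 for sensors and 0.093 for effectors, a reversal. With no limit, 4 genes were higher and 3 lower in J3T-2A/J3T-2, 2 higher and 10 lower in J3T-1shA/J3T-1, and 3 higher in J3T-1/J3T-2. The median of the ISG15 system in J3T-1shA/J3T-1 was then -0.48, and that of transcription factors in J3T-1/J3T-2 was -0.40. With a pseudocount of 80, 2 genes were lower in J3T-1shA/J3T-1. With the median of probe sets, 2 were lower in J3T-2A/J3T-2 and the transcription factors had -0.40 in J3T-1/J3T-2. The second brightest probe set, which fewer genes have, gave 0 higher and 0 lower genes and medians of 0.56 (sensors) and -0.66 (ISG15 system) in J3T-2A/J3T-2. In J3T-1shA/J3T-1 it gave 1 lower gene and medians of 0.035 for sensors, again reversed and from OAS1 alone, and -1.17 for effectors. In J3T-1/J3T-2 it gave 0.59 (sensors), -0.40 (transcription factors) and -1.28 (effectors), and 8 instead of 16 genes reached 250 on all 4 arrays. The alternatives for the order of arrays and for limits on both or all arrays were added after the data were seen. The order was found in 10 of 24 genes (41.7%), 9 of 15 (60%) with a limit of 500 and 10 of 39 (25.6%) with none. With 250 on all 4 arrays, 8 genes were highest in J3T-2 and 10 lowest in J3T-1shA, of 16. The causes of these shifts were not tested beyond the genes that each setting leaves.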

Other observations

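Genes that adjoin each other in the RefSeq dog assembly were not always alike. IFI44 and IFI44L, which are neighbours, were both highest on the array labelled J3T-2 and lowest on that labelled J3T-1shA. OAS1, OAS3 and OAS2 lie side by side, but for J3T-1shA/J3T-1 OAS2 had a log2 ratio of -1.38 and OAS1 one of -0.18, and OAS3 was under 250 on all arrays (14.3 to 63.4).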
